A study of Homo sapiens with 10 samples.

Results

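Ribosomal protein paralogs are genes that encode a second, closely related version of a ribosomal protein. The 6 paralogs RPS27L, RPL22L1, RPL26L1, RPL36AL, RPL7L1 and RPL39L were selected by symbol. Of these, 5 had a row in both expression tables, and RPL22L1 was not analysed here. All 5 passed the filter on low values, which kept 7015 of the 11258 genes in both tables, those reaching 5 FPKM in some library of each assay. FPKM is the number of fragments divided by the length of the transcript and the size of the library.

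The cells were BJ, human primary fibroblasts immortalized with hTERT, the catalytic subunit of telomerase. An untreated control was compared with cells given nutlin-3a, which were taken at 2, 4, 6 and 19 h, so both the hTERT expression and the culture medium were shared by all of them. Each group was profiled with 1 RNA-Seq library of poly(A) RNA and 1 Ribo-Seq library, in which the mRNA fragments protected by ribosomes are sequenced, giving 10 libraries in all. No group had a replicate, so no p-value was computed, and the intervals given below are 95% intervals of counting error only. The study describes lower reproducibility between sequencer runs and states that each condition was set against the control of its own run, and its sample list places a control beside 6 and 19 h. The labels name no run, so whether the 2 and 4 h libraries shared the run of this control was not established here.

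Read totals, which could be worked out from the step size of the deposited values, were 23845560 to 27554288 for RNA-Seq and 7744900 to 14460726 for Ribo-Seq, the lowest being the Ribo-Seq library of 19 h. All 10 fibroblast markers were at 55.5 FPKM or more in the RNA-Seq control. Of the markers of other cell types, KRT18 was at 293 FPKM and KRT8 at 12.4 FPKM, CDH1 and VWF were at or below 0.095 FPKM, and the leukocyte markers with a row were at or below 0.378 FPKM. In bulk RNA, fewer cells of a type and less RNA per cell cannot be told apart.

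Most ribosomal proteins are encoded by a single expressed gene in human cells, and the paralogs are the exceptions. Nutlin-3a blocks the binding of MDM2, a ubiquitin ligase, to p53, the transcription factor that MDM2 keeps low. RPS27L is a known transcriptional target of p53, and its protein, like that of its relative RPS27, can bind MDM2. The mRNAs of ribosomal proteins usually begin with a 5′ terminal oligopyrimidine (TOP) tract, a C followed by a run of C and T, through which the mTOR kinase controls their translation. Here each paralog is set beside the ribosomal protein gene it resembles, called its parent: RPS27 for RPS27L, RPL26 for RPL26L1, RPL36A for RPL36AL, RPL7 for RPL7L1 and RPL39 for RPL39L.

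The start sites of the paralogs and parents are shown because the TOP tract is the feature that ribosomal protein mRNAs share. RefSeq promoter windows on GRCh38.p14 are shown for 4 of the 5 paralogs and 4 of the 5 parents. Windows of 1 chromosome were left out of the listing, so the lack of RPL7 does not show that RefSeq has none for it. Each sequence below covers 15 bases before the annotated start and 15 bases from it, on the coding strand, and capitals mark the unbroken run of C and T that contains the first transcribed base.
RPS27L (chr15:63157463-63157492, minus strand): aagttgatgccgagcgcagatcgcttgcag
RPS27 (chr1:153990747-153990776, plus strand): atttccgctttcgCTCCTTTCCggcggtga
RPL26L1, start 1 (chr5:172958714-172958743, plus strand): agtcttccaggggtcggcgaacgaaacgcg
RPL26L1, start 2 (chr5:172958865-172958894, plus strand): ggcggggcggcggccacaaacccgcaggca
RPL26 (chr17:8383179-8383208, minus strand): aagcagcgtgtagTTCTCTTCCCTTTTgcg
RPL36AL (chr14:49620612-49620641, minus strand): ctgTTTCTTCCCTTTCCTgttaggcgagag
RPL36A (chrX:101390996-101391025, plus strand): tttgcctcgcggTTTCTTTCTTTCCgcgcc
RPL7L1 (chr6:42879601-42879630, plus strand): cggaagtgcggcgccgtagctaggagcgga
RPL39 (chrX:119791616-119791645, minus strand): ttcttccgccagCTTCCCTCCTCTTCCTTT

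The 4 parents shown began with C and a further 6 or more pyrimidines, and RPL39 had the longest run, 19 letters from the annotated start, of which 15 are shown. None of the 4 paralogs shown had such a tract at the annotated start. RPS27L and RPL7L1 began with G, and the starts of RPL26L1 began with G and with A. RPL36AL differed from the other paralogs in having a run of 15 pyrimidines across its start, but only 3 letters of the run lay at or after the annotated first base. A run of at least that length through the start was found in 325 of 35116 RefSeq promoters (0.926%).

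A TOP-like start, written here as C followed by at least 4 more C or T at the annotated first base, was found on the coding strand of 4.07% of all promoters. The reverse complement of that pattern was as frequent at the start, in 4.05% of promoters. By gene, where any promoter of the gene could match, a TOP-like start was found in 47 of the 63 ribosomal protein genes with a promoter (74.6%). The share of tested genes with a promoter, counted in the same way, was 8.77%. The half-site of p53 was searched by name on both strands of the whole window of 300 bases and was present in 6.63% of promoters. Among these genes, RPS27L and RPS27 had 1 half-site each and the others shown had none. A full p53 site, a pair of half-sites at most 13 bases apart, was found in 10 of all promoters (0.0285%) and in the window of none of these genes. The search allowed no mismatch and covered only the 300 bases, so it cannot show that a gene lacks a p53 site. These letter matches describe the annotated windows, not sites of binding.

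In the untreated cells the paralogs differed widely in level. By RNA-Seq RPL36AL was the highest at 154 FPKM, followed by RPS27L at 85.8, RPL7L1 at 46.9, RPL39L at 31.0 and RPL26L1 at 11.2 FPKM, and the counting intervals of neighbours in this order did not overlap. By Ribo-Seq the order was RPL36AL at 363 FPKM, RPS27L at 178, RPL39L at 40.0, RPL7L1 at 23.1 and RPL26L1 at 9.85 FPKM, again without overlap. RPL39L and RPL7L1 therefore changed places between the assays. The values are per length of the whole transcript, worked out as 4476 nt for RPL7L1 and 756 nt for RPL39L. Ribo-Seq reads lie mostly in coding sequence, so the Ribo-Seq order of these genes depends on that length. Relative to its parent, RPL36AL was the most abundant of the paralogs, at 68.4% of RPL36A by RNA-Seq. RPS27L was at 7.73% of RPS27, RPL7L1 at 7.82% of RPL7, RPL39L at 4.92% of RPL39 and RPL26L1 at 1.58% of RPL26. Reads that matched both a paralog and its parent were dropped by the authors, so these percents compare FPKM of uniquely mapped reads.

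**Figure D1:**
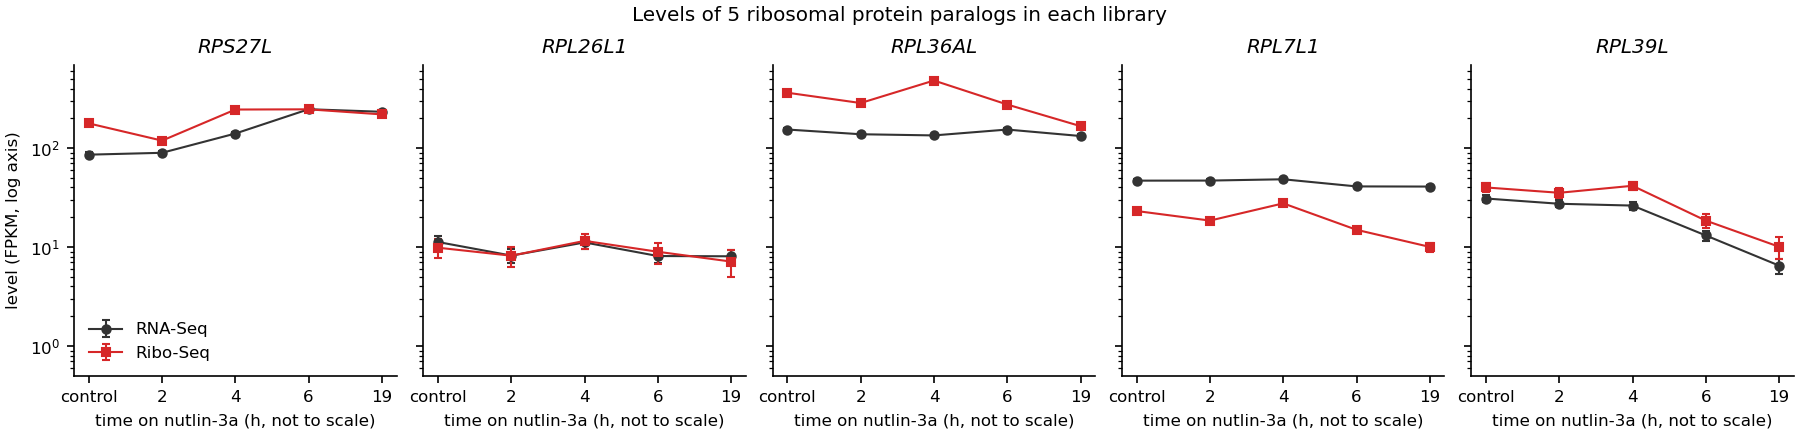
Level of the 5 paralogs (FPKM, log axis) in the control and at 2, 4, 6 and 19 h on nutlin-3a, by RNA-Seq (black circles) and Ribo-Seq (red squares), 1 library per point with 95% counting intervals. RNA of RPS27L rose from 85.8 to 247 FPKM at 6 h and that of RPL39L fell from 31.0 to 6.50 FPKM at 19 h, while the RNA of RPL36AL stayed between 132 and 154 FPKM.

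The RNA of RPS27L rose and that of RPL39L fell on nutlin-3a, and the other 3 paralogs stayed within 2-fold of the control at all times. RPS27L, the paralog of a small-subunit protein, had 85.8 FPKM in the control, 89.6 at 2 h, 140 at 4 h, 247 at 6 h and 233 FPKM at 19 h by RNA-Seq. The control and 2 h were the low libraries and 6 and 19 h the high ones. The log2 change against the control was 0.06 at 2 h (95% counting interval -0.04 to 0.17), 0.71 at 4 h (0.61 to 0.80), 1.52 at 6 h (1.44 to 1.61) and 1.44 at 19 h (1.35 to 1.53), a 2.88-fold level at 6 h. At 6 h 99.3% of tested genes had a lower change than RPS27L.

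RPL39L, the paralog of a small and basic large-subunit protein and best known from the male germ line, had 31.0 FPKM in the control, 27.4 at 2 h, 26.3 at 4 h, 13.1 at 6 h and 6.50 FPKM at 19 h. The library of 19 h rested on 128 reads against 558 in the control. Its log2 change was -1.24 at 6 h (-1.45 to -1.03) and -2.25 at 19 h (-2.53 to -1.97), which left 0.21 of the control level. RPL39L at 19 h was lower than RPL26L1, although their counting intervals overlapped, 6.50 FPKM (5.37 to 7.63) against 8.07 FPKM (6.80 to 9.34).

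RPL36AL, the paralog of RPL36A, which lies close to the ribosomal exit site for tRNA, varied little by RNA-Seq. Its levels were 154 FPKM in the control, 138 at 2 h, 134 at 4 h, 154 at 6 h and 132 FPKM at 19 h. RPL7L1, a relative of RPL7 that takes part in ribosome assembly, had 46.9, 47.0, 48.4, 41.0 and 40.9 FPKM in the same order. RPL26L1, which differs from RPL26 by few residues, had 11.2, 8.20, 11.1, 8.12 and 8.07 FPKM and was the least abundant of the paralogs in the control. Its log2 change at 19 h was -0.48 (-0.78 to -0.18), and the libraries of 2, 6 and 19 h lay together below those of the control and 4 h.

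Of the 5 paralogs, 0 were past 2-fold by RNA at 2 h and 0 at 4 h, where 0.941% and 2.1% of tested genes were past that limit. At 6 h 2 of the 5 paralogs were past it, against 7.14% of tested genes, and at 19 h again 2, against 9.59%. On both occasions these were RPS27L above and RPL39L below the control. The median change of the paralogs was -0.19 at 6 h and -0.22 at 19 h, and that of all tested genes was -0.0024 and -0.067. With 5 members these counts and medians describe the genes named and no class of genes.

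**Figure D2:**
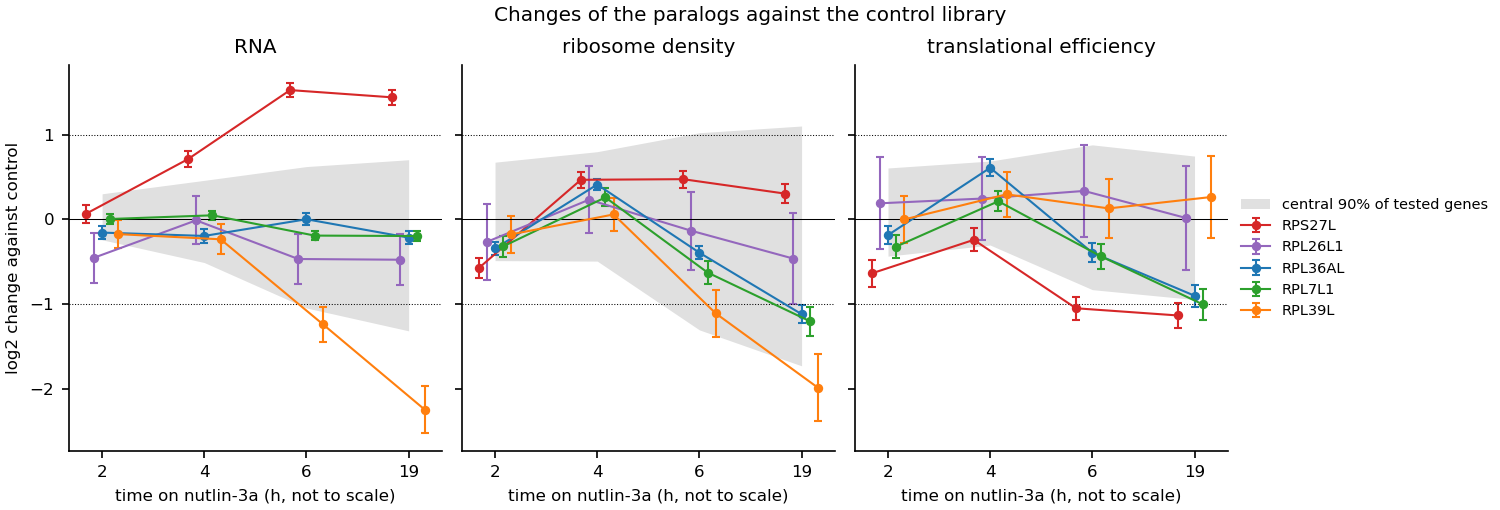
Log2 change of each paralog against the control library of the same assay in RNA, ribosome density and translational efficiency at 2, 4, 6 and 19 h, with 95% counting intervals, dotted lines at 2-fold and a grey band for the central 90% of tested genes. RPS27L lay above the band in RNA from 4 h on and below it in translational efficiency at 2, 6 and 19 h, whereas RPL39L lay below it in RNA at 6 and 19 h and inside it in translational efficiency.

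Ribosome density, the Ribo-Seq level of a transcript, did not follow the RNA of RPS27L. The levels of RPS27L by Ribo-Seq were 178 FPKM in the control, 119 at 2 h, 245 at 4 h, 247 at 6 h and 219 FPKM at 19 h. The library of 2 h was below the control and the later ones were above it. The log2 change was -0.58 at 2 h (-0.70 to -0.46), 0.47 at 4 h (0.37 to 0.56), 0.47 at 6 h (0.37 to 0.57) and 0.30 at 19 h (0.19 to 0.41). None of these was past 2-fold, but against the 2 h library the change was 1.043 at 4 h and 1.051 at 6 h.

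RPL36AL had the highest ribosome density of the paralogs up to 6 h, with 363 FPKM in the control, 285 at 2 h, 482 at 4 h, 276 at 6 h and 167 FPKM at 19 h. At 19 h RPS27L, at 219 FPKM, was above RPL36AL and the counting intervals did not overlap. The density of RPL36AL fell by 1.12 on the log2 scale at 19 h (-1.23 to -1.02). RPL7L1 had 23.1, 18.5, 27.7, 14.9 and 10.0 FPKM from the control to 19 h, and its log2 change at 19 h was -1.20 (-1.38 to -1.03). For both genes 4 h was the highest library and 19 h the lowest.

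The density of RPL39L was 40.0 FPKM in the control, 35.4 at 2 h, 41.6 at 4 h, 18.5 at 6 h and 10.1 FPKM at 19 h, the last from 59 reads. Its log2 change was -1.11 at 6 h (-1.39 to -0.83) and -1.99 at 19 h (-2.39 to -1.59), close to that of its RNA. RPL26L1 had 9.85, 8.18, 11.6, 8.96 and 7.14 FPKM, and its counting intervals at all 4 times included no change, with 86 reads in the control and 41 at 19 h.

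By ribosome density 0 of the 5 paralogs were past 2-fold at 2 h and 0 at 4 h, against 2.25% and 3.11% of tested genes. At 6 h 1 was, RPL39L, against 13.3%, though against the 2 h library it was at -0.93. At 19 h 3 were, RPL36AL, RPL7L1 and RPL39L, all below the control, against 21.1% of tested genes. Centred on the median of tested genes the count at 19 h was 2, as RPL36AL was then at -0.93, and with the 2 h library as baseline it was 1, RPL39L, as RPL36AL was at -0.78 and RPL7L1 at -0.88. The median change at 19 h was -1.12 for the paralogs and -0.19 for all tested genes. All 5 paralogs were below the control at 2 h and above it at 4 h by Ribo-Seq, where the medians of all tested genes were 0.016 and 0.10. The counting intervals of RPL26L1 and RPL39L included no change at both times. This was not particular to the paralogs. Of 77 other ribosomal protein genes tested, 74 were below the control at 2 h and 51 above it at 4 h. Their median change was -0.27 at 2 h and 0.11 at 4 h. The value at 4 h is near that of all tested genes, so the rise at 4 h marks nothing particular to ribosomal protein genes.

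Translational efficiency (TE) is the ratio of the Ribo-Seq to the RNA-Seq level of a transcript, and its change is given as log2. As the deposited values are per kilobase of the whole transcript, TE levels of transcripts with long untranslated regions are not comparable to those of others. In the change of a gene the length cancels. The fraction of Ribo-Seq reads outside coding sequence, which the study lists as unequal between libraries, need not cancel. Its effect on the TE changes was not tested. The recovered length of RPL7L1 was 4476 nt, against 681 to 756 nt in the other paralogs, and its TE ratio of 0.49 in the control was the lowest among them. The TE ratio in the control was 2.35 for RPL36AL, 2.07 for RPS27L, 1.29 for RPL39L and 0.88 for RPL26L1, beside a median of 0.83 over tested genes.

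Against the control library the TE of RPS27L fell while its RNA rose. Its ratio was 2.07, 1.33, 1.75, 1.00 and 0.94 from the control to 19 h, so every treated library was below the control. The log2 change was -0.64 at 2 h (-0.80 to -0.48), -0.24 at 4 h (-0.38 to -0.11), -1.05 at 6 h (-1.19 to -0.92) and -1.14 at 19 h (-1.28 to -0.99). The RNA change of 1.44 and the TE change of -1.14 at 19 h left the density change of 0.30 given above. The size of the TE change rests on the control: against the 2 h libraries it was 0.40 at 4 h, -0.41 at 6 h and -0.50 at 19 h, none past 2-fold, whereas the RNA change was still 1.46 at 6 h and 1.38 at 19 h. Only 2.15% of tested genes had a lower TE change than RPS27L at 6 h and 2.54% at 19 h.

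RPL36AL and RPL7L1 both had their highest TE at 4 h and their lowest at 19 h. The ratio of RPL36AL was 2.35, 2.07, 3.59, 1.79 and 1.26 from the control to 19 h, and its log2 change was 0.61 at 4 h (0.51 to 0.71) and -0.90 at 19 h (-1.03 to -0.77). The ratio of RPL7L1 was 0.49, 0.39, 0.57, 0.36 and 0.25, with a log2 change of 0.21 at 4 h (0.09 to 0.33) and -1.01 at 19 h (-1.19 to -0.82). The median TE change of all tested genes at 4 h was 0.18, and relative to it RPL36AL was at 0.43 and RPL7L1 at 0.033. The counting interval of RPL7L1 at 19 h spans the 2-fold limit, and the values of both genes lay close to it.

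The TE of RPL39L and RPL26L1 was not detectably different from the control at 19 h. RPL39L had ratios of 1.29, 1.29, 1.59, 1.41 and 1.55, and its log2 change at 19 h was 0.26 (-0.22 to 0.75). RPL26L1 had ratios of 0.88, 1.00, 1.04, 1.10 and 0.88, and its log2 change at 19 h was 0.01 (-0.60 to 0.63). These were the paralogs with the fewest reads and the widest intervals. For RPL26L1 the interval at 19 h allows a change of up to -0.60, which is short of the changes of RPS27L, RPL36AL and RPL7L1.

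By TE 0 of the 5 paralogs were past 2-fold at 2 h and 0 at 4 h, against 1.2% and 0.998% of tested genes. At 6 h 1 was, RPS27L, against 5.74%, and at 19 h 2 were, RPS27L and RPL7L1, against 6.14%. These were below the control. With the changes centred on the median of tested genes, or with 1 FPKM added to each value, the count at 19 h was 1, and RPS27L alone was past the limit under either. With the 2 h libraries as baseline the count was 0 at 6 h and 0 at 19 h.

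The parents moved together in TE and the paralogs did not. All 6 parents, RPL22 included, were past 2-fold below the control at 19 h, with a median log2 change of -1.77, and 5 of the 6 were at 6 h. Past that limit below the control were 4.21% of tested genes at 19 h and 2.54% at 6 h. Their RNA stayed within 2-fold at all times, with a median change of -0.02 at 19 h. The TE change at 19 h was -1.68 for RPS27, -2.29 for RPL26, -1.90 for RPL36A, -1.76 for RPL7 and -1.78 for RPL39.

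**Figure D3:**
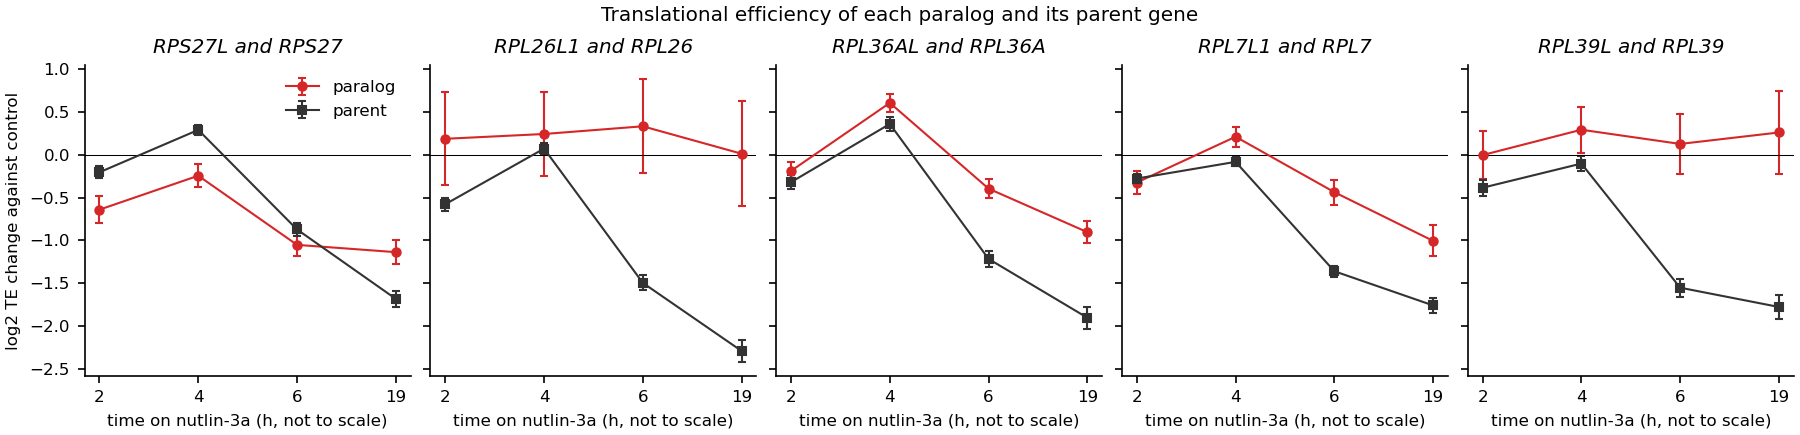
Log2 TE change of each paralog (red circles) and its parent (black squares) against the control at 2, 4, 6 and 19 h, with 95% counting intervals. At 19 h each of the 5 paralogs lay above its parent, by 0.55 for RPS27L to 2.31 for RPL26L1, and RPS27L lay below RPS27 at 2, 4 and 6 h.

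The difference between the TE changes of a paralog and its parent does not depend on the scaling of a library. For RPS27L it was -0.44 at 2 h (-0.61 to -0.27), -0.54 at 4 h (-0.68 to -0.39), -0.18 at 6 h (-0.33 to -0.03) and 0.55 at 19 h (0.38 to 0.72). The TE of RPS27L was thus lower than that of RPS27 relative to the control at the early times and higher at 19 h. RPS27L was the sole paralog with counting intervals below 0 at 2, 4 and 6 h. This order rests on the control libraries: with the 2 h libraries as baseline the difference was -0.098 at 4 h, 0.26 at 6 h and 0.98 at 19 h.

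For RPL39L the difference was 0.38 at 2 h (0.09 to 0.67), 0.40 at 4 h (0.12 to 0.68), 1.68 at 6 h (1.31 to 2.05) and 2.04 at 19 h (1.54 to 2.54). For RPL26L1 it was 0.76 at 2 h (0.22 to 1.31), 0.17 at 4 h (-0.32 to 0.66), 1.83 at 6 h (1.27 to 2.39) and 2.31 at 19 h (1.68 to 2.93). At 4 h the value of RPL26L1 was -0.59 with the 2 h baseline. In both pairs the paralog stayed near the control while the TE of the parent fell.

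For RPL36AL the difference was 0.13 at 2 h (-0.01 to 0.27), 0.25 at 4 h (0.12 to 0.37), 0.82 at 6 h (0.68 to 0.96) and 1.00 at 19 h (0.82 to 1.18). For RPL7L1 it was -0.05 at 2 h (-0.19 to 0.10), 0.29 at 4 h (0.16 to 0.42), 0.92 at 6 h (0.76 to 1.08) and 0.75 at 19 h (0.55 to 0.95). In these pairs both genes were below the control in TE at 6 and 19 h, the parent by more. RPL36AL has a pyrimidine run that begins before its annotated start, and RPL7L1 has no such run. Whether that run bears on TE was not tested.

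The level of each paralog was also taken as a percent of its parent, both in FPKM. FPKM is per length of transcript. The recovered lengths were 681 nt for RPS27L and 350 nt for RPS27, and 4476 nt for RPL7L1 and 1101 nt for RPL7. These percents are therefore not shares of the fragments of a pair. RPS27L was at 12.1% of RPS27 in the Ribo-Seq control, and then at 10.8%, 14.1%, 24.5% and, at 19 h, 42.4%. By RNA-Seq it was at 7.73%, 9.31%, 13.01%, 17.7% and 18.5% in the same order. RPL36AL was at 82.0% of RPL36A by Ribo-Seq in the control and at 162% at 19 h, with 68.4% and 67.8% by RNA-Seq. It was above its parent by Ribo-Seq at 6 and 19 h and below it in the other libraries.

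RPL26L1 was at 1.44% of RPL26 by Ribo-Seq in the control and 5.01% at 19 h, against 1.58% and 1.11% by RNA-Seq. RPL39L was at 5.75% of RPL39 by Ribo-Seq in the control and 5.16% at 19 h, while by RNA-Seq it went from 4.92% to 1.07%. The density changes of RPL39L and RPL39 at 19 h, -1.99 and -1.83, did not differ beyond counting error (difference -0.16, -0.57 to 0.26), although RNA changed past 2-fold for RPL39L alone and TE for RPL39 alone. RPL7L1 was at 3.67% of RPL7 by Ribo-Seq in the control and 5.33% at 19 h.

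**Figure D4:**
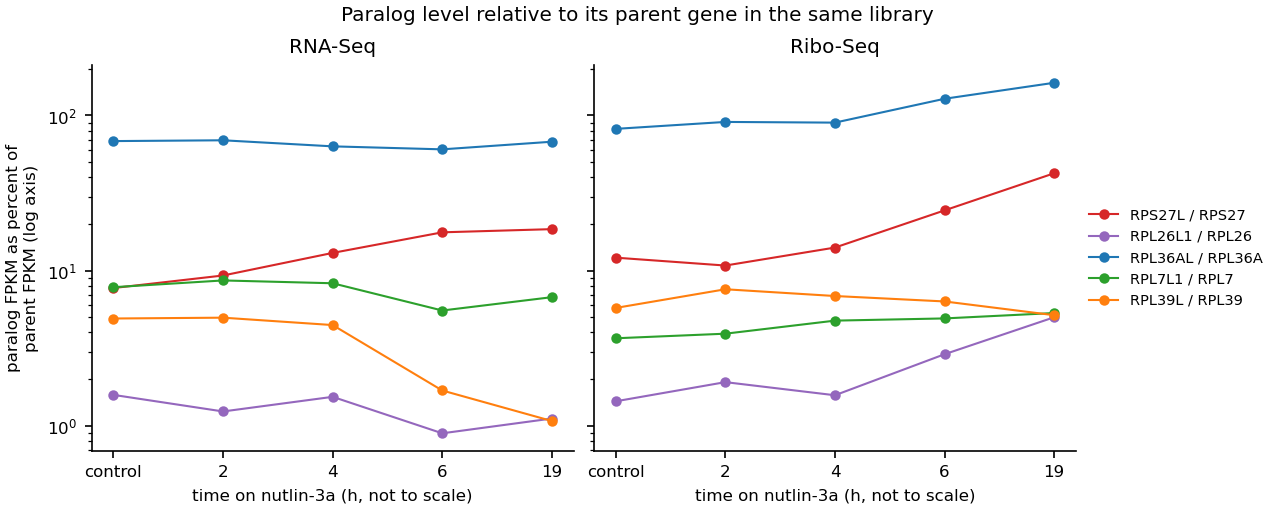
Paralog level as a percent of its parent in the same library (log axis) by RNA-Seq (left) and Ribo-Seq (right), from the control to 19 h on nutlin-3a, 1 library per point. By Ribo-Seq RPS27L went from 12.1% to 42.4% of RPS27 and RPL36AL from 82.0% to 162% of RPL36A, and by RNA-Seq RPL39L went from 4.92% to 1.07% of RPL39.

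The other ribosomal protein genes give the range in which the paralogs lie. Of the 79 listed, parents included and paralogs not, 77 were tested. At 19 h their median TE change was -1.32, and all 77 were below the control. Past 2-fold below it were 58, against 4.21% of tested genes. The changes ran from RPL26 at -2.29 to RPS15, a small-subunit protein, at -0.45. The TE changes of RPL39L and RPL26L1 were above that range, and those of RPS27L, RPL36AL and RPL7L1 were within it, though the counting interval of RPL26L1 reached into the range. By RNA at 19 h, where the 77 genes ran from -0.23 to 0.72 and none was past 2-fold, the change of RPS27L was above and those of RPL39L and RPL26L1 were below the range, that of RPL26L1 again with an interval reaching into it. The 13 ribosomal proteins known to bind MDM2, RPS27 and RPL26 among them, had a median TE change of -1.45 at 19 h. Past 2-fold below the control were 11 of the 13, against 58 of the 77 and 4.21% of tested genes. These values are near those of the 77, so they mark nothing particular to the proteins that bind MDM2.

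**Figure D5:**
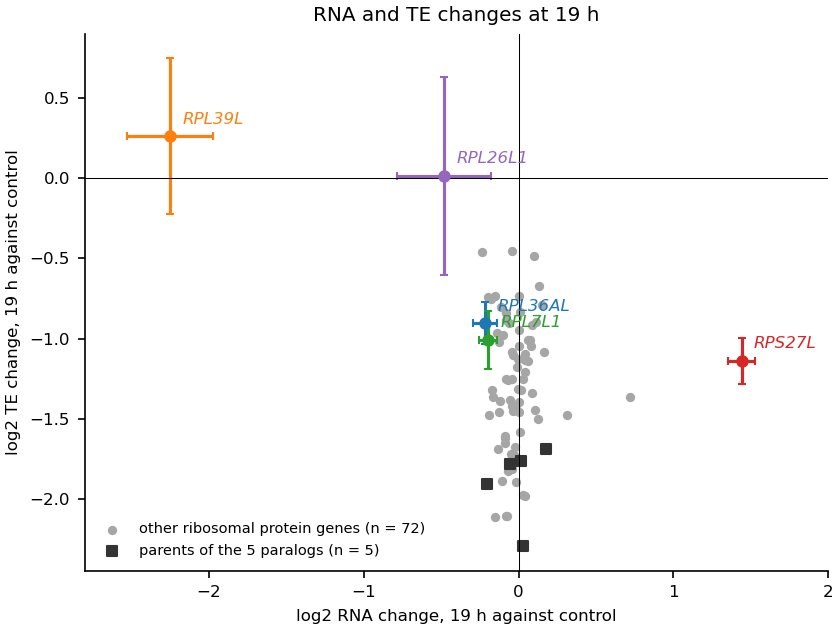
Log2 change in RNA (horizontal) and TE (vertical) at 19 h for the 5 paralogs (colored, 95% counting intervals), their 5 parents (black squares) and 72 other ribosomal protein genes (grey). The grey and black points lie between -0.23 and 0.72 in RNA, where a single gene sets the upper end and the next is at 0.31. RPS27L lies to the right of them at 1.44 and RPL39L to the left at -2.25.

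Among 21 tested of 25 listed p53 targets, RPS27L not included, the median RNA change was 0.52, 2.02, 2.29 and 2.46 from 2 to 19 h. Above the control by at least 2-fold were 7, 19, 17 and 19 of them, against 0.927%, 1.41%, 1.75% and 2.49% of tested genes. At 19 h they ran from PLK2, a polo-like kinase, at 0.15 to BTG2, an antiproliferative factor, at 4.66. The RNA change of RPS27L, 1.44 at 19 h, lay within this range and below the median. In TE the p53 targets had a median of 0.0089 at 19 h. Of the 21, 1 was past 2-fold below the control, CCNG1 at -1.13, about the value of RPS27L. Past that limit above the control was 1, GDF15, at 1.12. Of all tested genes 4.21% were past it below the control and 1.94% above, so counts of 1 in 21 mark no trait of p53 targets. CCNG1 and GDF15 were named after their values were seen.

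Tested genes with a TOP-like start numbered 466, 8.77% of the 5314 with a RefSeq promoter. Their median TE change at 19 h was -0.24, against -0.061 for the 4848 without, and without the ribosomal proteins it was -0.16 over 420 genes. Of the 4 paralogs with a promoter, none with the tract, RPS27L, RPL7L1 and RPL36AL were below these medians and RPL26L1, at 0.01, was above them.

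For each paralog the genes nearest in pattern were those with the smallest root mean square distance over 8 log2 changes, RNA and density at 4 times each. The nearest to RPS27L were HSDL2, a peroxisomal protein (0.28), CASP1, an inflammatory caspase (0.32), and NTPCR, a nucleoside triphosphatase (0.32). HSDL2 had a change of 1.28 in RNA and 0.51 in density at 6 h, where RPS27L had 1.52 and 0.47. Distances were larger for RPS27L than for any other paralog.

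The nearest to RPL39L were DTYMK, a thymidylate kinase (0.17), MTHFD1, an enzyme of folate metabolism (0.17), and DDX39A, an RNA helicase (0.18). DTYMK had a change of -2.04 in RNA and -1.80 in density at 19 h, where RPL39L had -2.25 and -1.99. The nearest to RPL36AL were PPP2R3C (0.065), POLR2F (0.11) and RAB8B (0.12), to RPL7L1 MED10 (0.088), YWHAZ (0.10) and CCNH (0.11), and to RPL26L1 C5orf30 (0.14) and HDAC3 (0.15). None of the genes named here as nearest was a ribosomal protein.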

How the data were processed

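Poly(A) RNA-Seq and Ribo-Seq of BJ cells were available for 5 time points, 1 library per assay and time. According to the study's methods, Bowtie was used by the authors to align reads to protein-coding transcripts of Ensembl release 65, with 1 isoform per gene, and multiple hits were discarded. The submitters' processing notes name hg19. The deposited values are FPKM with 3 decimals. The table named for both assays was read as RNA-Seq: of 28 histone transcripts, whose mRNAs mostly lack poly(A), 21 had a control value under 1 FPKM there and 0 in the other table. The methods describe Ribo-Seq levels from coding sequence, whereas the columns say total, so reads outside it may be included.

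Values under 1 FPKM were set to 1 FPKM, and log2 ratios to the control of the same assay were taken. Called means past 2-fold in either direction. Whole reads and lengths were recovered from the FPKM spacing, tested on simulated data, and gave counting SEs and 95% intervals (1.96 SE), which cover counting error only. Replicates did not exist, so there was no test. Members, parents, lists and filters were chosen with earlier results of these data known. Genes named were the members and parents, the extremes at 19 h of the p53 (RNA) and ribosomal protein (TE) lists, and the 3 tested genes nearest to each member, of which 1 is not reported here. CCNG1 and GDF15 were named outside this rule. Alternatives were a pseudocount of 1 FPKM, a floor of 5 FPKM, the 2 h library as baseline, centring on the median of tested genes, no filter, and a mean of at least 20 FPKM. Python 3.11.15, numpy 2.4.6, pandas 2.3.3 and matplotlib 3.10.9 were used.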

Additional observations from a re-analysis of the deposited data

Results flagged for a closer look

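Some changes against the control had opposite signs at different times, each with a counting interval that left out 0. None of these differences between times was tested, as each time was 1 library. The ribosome density of RPS27L was lowest at 2 h, with a log2 change of -0.58, and highest at 6 h, with 0.47. The density of RPL36AL had a log2 change of -1.12 at 19 h and 0.41 at 4 h, and its TE had one of -0.90 at 19 h and 0.61 at 4 h. The density of RPL7L1 had a log2 change of -1.20 at 19 h and 0.26 at 4 h, and its TE had one of -1.01 at 19 h and 0.21 at 4 h. The median TE change of all tested genes was 0.18 at 4 h, in the same direction.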

How the results depend on the processing

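No change past 2-fold turned its sign under the alternatives tried. A pseudocount of 1 FPKM and a floor of 5 FPKM moved each of the 60 log2 changes of the paralogs by no more than the half-width of its 95% counting interval. Centring on the median of tested genes moved 10 of the 60 by more than that. With the pseudocount the number of paralogs past 2-fold in TE at 19 h was 1 in place of 2. After centring it was also 1, and in density at 19 h the number was 2 in place of 3. With the 2 h library as baseline the number past 2-fold was 1 in density at 4 h, 1 in density at 19 h, 0 in TE at 6 h and 0 in TE at 19 h, and 25 of 45 log2 changes moved by more than their half-width. With that baseline the TE change of paralog minus parent was -0.098, 0.26 and 0.98 at 4, 6 and 19 h for RPS27L, -0.59, 1.07 and 1.54 for RPL26L1, 0.12 at 4 h for RPL36AL, and 0.014 and 1.298 at 4 and 6 h for RPL39L. The values at 6 h for RPS27L and at 4 h for RPL26L1 thus turned their sign, as did the TE change of RPS27L at 4 h, from -0.24 to 0.40. The cause was not tested. Without a filter 1.67% of genes were past 2-fold in TE at 4 h, and with a mean of at least 20 FPKM 0.426% were, and 1.94% in density at 4 h. No paired analysis was possible because each group held 1 library and no result came from a test. Depth limited RPL26L1 and RPL39L most, with 41 and 59 Ribo-Seq reads at 19 h. Uniquely mapped reads leave out stretches that a paralog shares with its parent.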
